A study of Homo sapiens with 12 samples.

Results

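The cathepsins are the proteases with which cells break down protein in lysosomes, and 10 of their genes, chosen by symbol from the 20307 genes of the deposited table, are described here: CTSA, CTSB, CTSC, CTSD, CTSH, CTSK, CTSL, CTSS, CTSV and CTSZ. The series holds 12 RNA-seq libraries from 2 established human lines, with 3 libraries in each of 4 groups. THP-1, derived from a monocytic leukaemia and turned towards macrophages by the phorbol ester PMA, had received PMA for 24 h and had then been kept for 48 h with H1299 cells labelled DCBLD2 or with H1299 cells labelled control; the genotype label of all 6 THP-1 libraries is WT, their treatment label names an H1299 supernatant where the design text names co-culture, and no THP-1 group without H1299 was analysed here. H1299, a line of non-small-cell lung carcinoma, was profiled as a group with the genotype label of DCBLD2 overexpression and as a group labelled WT, called labelled control here; the labels give neither the construct nor the number of clones.

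Most cathepsins are papain-type cysteine proteases, whereas cathepsin D is an aspartic and cathepsin A a serine protease. They are made as inactive precursors, carried to the lysosome largely by mannose 6-phosphate receptors, and cut to the active form in its acid interior. Macrophages are rich in them, use them to digest what they engulf and to trim antigens for MHC class II, and can secrete them into tissue, where cystatins hold them in check.

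DCBLD2, the gene after which the groups are named, went against the H1299 labels: it stood at 105, 98.2 and 92.5 TPM (a read level scaled by transcript length and to a fixed total per library) in the H1299 libraries labelled DCBLD2, against 247, 148 and 196 TPM in those labelled control. This is a log2 fold change of -1.27 ± 0.17 (SE; adjusted p = 0.00284, quasi-likelihood test of edgeR). All directions below therefore run from the labels, labelled DCBLD2 over labelled control, and not from a known change in DCBLD2. Libraries held 18606739 to 26787853 estimated reads in THP-1 and 14578887 to 23388187 in H1299. The macrophage markers fixed for the check of identity summed to 6854 to 6900 TPM in THP-1 labelled DCBLD2 and 5099 to 5164 TPM in THP-1 labelled control, where 8 of 11 tested rose and 3 fell, beside 34.5% and 33.6% of all genes. In H1299 they summed to 198 to 201 TPM and 139 to 142 TPM, nearly all of it CD68, with PTPRC and AIF1 at 0. The carcinoma list summed to 143 to 153 TPM in THP-1 labelled DCBLD2 and 175 to 185 TPM in THP-1 labelled control, mostly CAV1 and with KRT19 at 0, against 1623 to 2115 TPM and 2391 to 2514 TPM in the H1299 groups. KRT18, at 812 to 1106 TPM and 1332 to 1431 TPM in H1299, reached 0.533 to 1.63 TPM in THP-1 labelled DCBLD2 and 0.164 to 0.25 TPM in THP-1 labelled control. Lymphocyte markers summed to 7.38 to 7.70 TPM in THP-1 labelled DCBLD2 and 12.03 to 12.24 TPM in THP-1 labelled control, and fibroblast and endothelial markers to 14.8 to 15.3 TPM and 28.98 to 30.56 TPM. In THP-1 the share of counts from mitochondrially encoded genes was 2.46% to 2.58% in labelled DCBLD2 and 3.48% to 3.51% in labelled control, and that of 82 ribosomal protein genes 5.14% to 5.42% and 3.73% to 3.75%. These values move with the groups in which the cathepsins moved, and their part in the results was not tested. In bulk RNA, fewer cells with a transcript and less of it per cell cannot be told apart.

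In THP-1, 9 of the 10 cathepsins could be tested and all 9 were called at an adjusted p under 0.05: CTSS, CTSD and CTSZ were higher in labelled DCBLD2, and CTSB, CTSL, CTSH, CTSK, CTSA and CTSC were lower. Of all 13120 genes tested in THP-1, 34.5% were called higher and 33.6% lower, so that being called sets the cathepsins little apart from other genes; the sizes differ widely, with log2 fold changes from -0.98 to 0.49 and a median of -0.14, against a median of 0.00046 over all genes tested. The groups did not overlap in TPM for any of the 9, as for 64.9% of all genes. In H1299, of 9 tested, 0 were called higher and only CTSZ was called lower, where 10.3% and 10.6% of 12773 genes were called higher and lower. The count of cathepsins called higher in H1299 was also 0 at an unadjusted p under 0.05 and by DESeq2. The median log2 fold change of the cathepsins in H1299 was -0.06, against 0.0047 over all genes tested. The THP-1 replicates lay far closer together than those of H1299, with a common coefficient of variation of 1.96% against 13.3%, and the calls of CTSA, CTSC, CTSD and CTSZ in THP-1, whose log2 fold changes lie between -0.14 and 0.13, rest on that closeness: with the spread of H1299 in its place 5 of 9 calls were left.

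**Figure D1:**
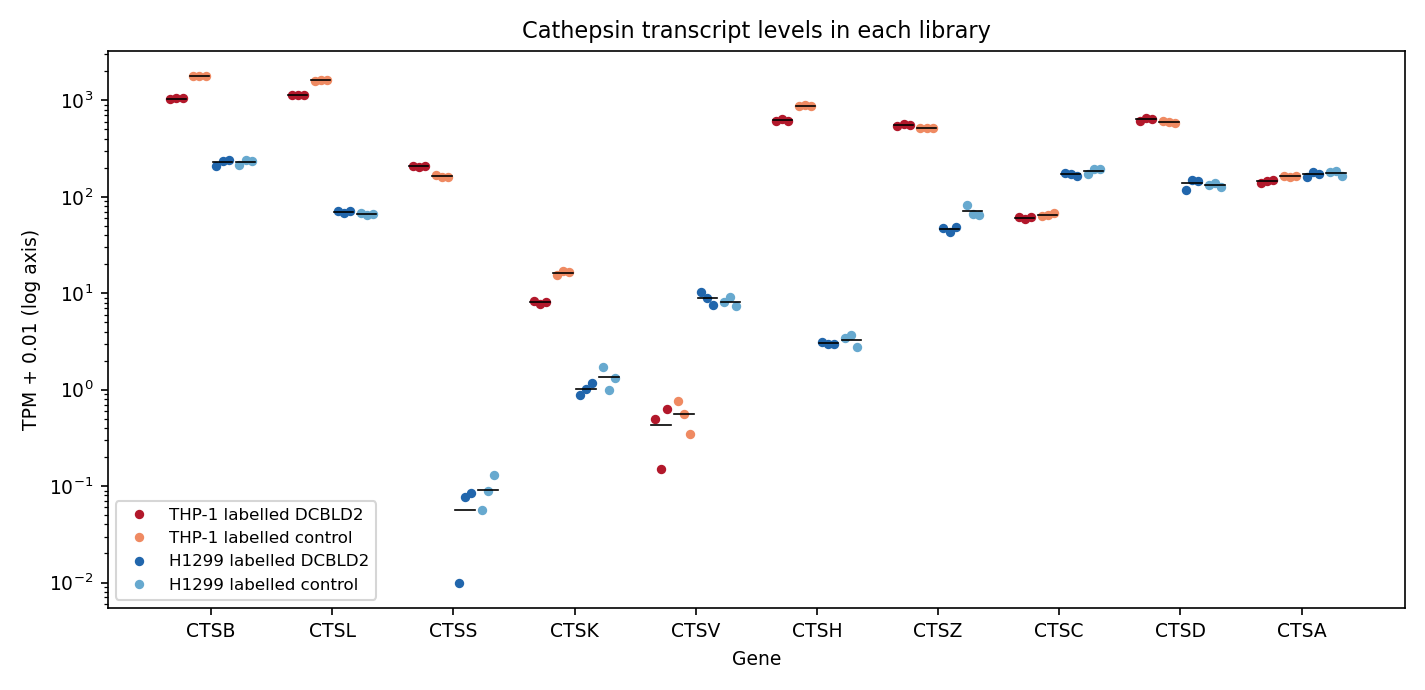
Levels of the 10 cathepsins in each of the 12 libraries, in TPM plus 0.01 on a log axis; points are libraries, bars are group means, and colours are the 4 groups of 3. CTSB and CTSL stand at 1024 to 1788 TPM in THP-1, CTSS is near 0 in H1299, and CTSV is higher in H1299 than in THP-1.

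**Figure D2:**
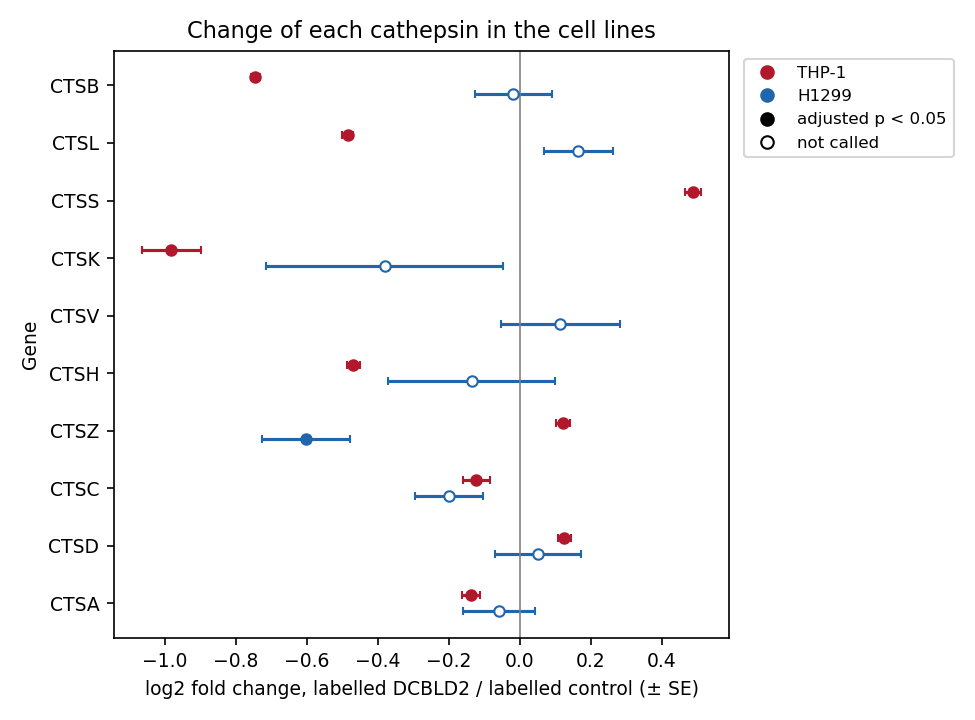
Log2 fold change of each tested cathepsin, labelled DCBLD2 over labelled control, with its standard error from edgeR, in THP-1 (red) and H1299 (blue); filled points passed an adjusted p of 0.05. All 9 points of THP-1 are filled, and of H1299 only that of CTSZ at -0.60.

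The sequences in front of a RefSeq transcript start were read for 7 of the 10 members (CTSA, CTSC, CTSD, CTSH, CTSL, CTSV and CTSZ). They come from RefSeq's GRCh38.p14 table, and the start named below is that position. Many lysosomal genes carry near their start the E-box CACGTG, whose extended form TCACGTGA lies at the core of the motif that transcription factors of the TFEB family recognise, and for this reason the 250 bases before the start were searched on both strands. CACGTG was found in CTSA, from 42 to 37 and again from 25 to 20 bases before the start, and in CTSD, from 47 to 42 bases before it, that is in 2 of 7 members and in 6.34% of all 35116 windows of this length. TCACGTGA was found in CTSA, from 26 to 19 bases before the start and so overlapping the nearer E-box, and in 0.854% of all windows. An interferon regulatory factor core, AANNGAAA, the AP-1 motif TGANTCA and the TATA box TATAAA were in 0 of the 7 windows, and in 20.3%, 6.57% and 10.7% of all. The 4 windows shown are those of the 2 genes with a match, of CTSL, the most abundant of the 7 in THP-1, and of CTSZ, the only member called in both fits per cell line; capitals mark the matches, and each is written 5′ to 3′ on the strand of its gene. The CTSA window is chr20:45891085-45891334 (plus strand), that of CTSD chr11:1763928-1764177 (minus), that of CTSL chr9:87725869-87726118 (plus) and that of CTSZ chr20:59007255-59007504 (minus). The GENCODE ranges of CTSA, CTSD and CTSL, given below, begin further upstream. Their windows lie inside those ranges, whereas that of CTSZ lies outside, and the distances hold for the RefSeq start only. Their GC content was 65.6%, 79.2%, 69.2% and 81.2% in that order, against a median of 58.0% over all windows.
CTSA: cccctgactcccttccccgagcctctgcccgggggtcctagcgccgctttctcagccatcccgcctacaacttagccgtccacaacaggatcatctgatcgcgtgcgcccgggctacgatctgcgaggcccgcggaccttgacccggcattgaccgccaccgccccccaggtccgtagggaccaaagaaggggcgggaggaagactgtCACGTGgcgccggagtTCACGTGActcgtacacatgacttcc
CTSD: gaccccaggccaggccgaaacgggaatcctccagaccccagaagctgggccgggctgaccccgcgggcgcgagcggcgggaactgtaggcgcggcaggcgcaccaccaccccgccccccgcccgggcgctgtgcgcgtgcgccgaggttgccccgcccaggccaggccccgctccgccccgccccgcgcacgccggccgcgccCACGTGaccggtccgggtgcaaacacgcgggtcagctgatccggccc
CTSL: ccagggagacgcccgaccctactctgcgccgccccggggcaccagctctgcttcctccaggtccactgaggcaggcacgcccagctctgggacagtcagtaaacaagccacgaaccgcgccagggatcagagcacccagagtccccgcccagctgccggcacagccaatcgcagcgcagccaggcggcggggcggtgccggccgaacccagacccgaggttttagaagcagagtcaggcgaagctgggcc
CTSZ: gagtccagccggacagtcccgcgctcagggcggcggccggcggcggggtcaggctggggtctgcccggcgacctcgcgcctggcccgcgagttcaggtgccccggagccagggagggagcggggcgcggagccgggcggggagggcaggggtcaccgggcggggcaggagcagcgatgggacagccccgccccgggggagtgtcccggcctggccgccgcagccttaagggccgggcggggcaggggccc
The E-boxes thus lie in CTSA, which fell slightly in THP-1, and CTSD, which rose slightly, and the matches are a description of the letters and not of binding.

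Cathepsins B and L, the broad cysteine endopeptidases of the lysosome, made up most of the loss of cathepsin transcript in THP-1. CTSB (ENSG00000164733; chromosome 8, 11842524 to 11869448, minus strand, GRCh38) encodes an enzyme that also clips dipeptides from protein ends. It stood at 1024, 1053 and 1054 TPM in THP-1 labelled DCBLD2, against 1779, 1788 and 1781 TPM in THP-1 labelled control. The groups were far apart, with means of 1044 ± 17.1 and 1783 ± 4.57 TPM (SD, n = 3 each), and CTSB ranked 149th of 20307 genes in labelled DCBLD2 and 65th in labelled control. It was 1.71-fold lower in TPM, with a log2 fold change of -0.75 ± 0.01 (SE) and an adjusted p of 2.34e-24 by edgeR. In H1299 CTSB held 211, 237 and 239 TPM in labelled DCBLD2 and 214, 243 and 234 TPM in labelled control. These groups overlapped, and the log2 fold change of -0.02 ± 0.11 was not called (adjusted p = 0.919, edgeR); its sign turned without labelled control replicate 2 (0.05) and without labelled DCBLD2 replicate 1 (0.03).

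CTSL (ENSG00000135047; chromosome 9, 87725519 to 87731393, plus strand) encodes cathepsin L, which cuts inside proteins and helps mature other lysosomal enzymes. Its promoter window, shown above, held none of the motifs searched. The level was 1137, 1127 and 1130 TPM in THP-1 labelled DCBLD2, against 1605, 1637 and 1611 TPM in THP-1 labelled control. CTSL was thus 1.43-fold lower in TPM (log2 fold change -0.49 ± 0.02, adjusted p = 1.92e-19, edgeR), a smaller fall than that of CTSB, and the order of the pair turned: CTSL was above CTSB in labelled DCBLD2 and below it in labelled control, with no overlap between the ranges of the 2 genes in either group. In H1299 CTSL held 71.3, 68.1 and 71.4 TPM in labelled DCBLD2 and 67.5, 64.7 and 65.7 TPM in labelled control. Every labelled DCBLD2 library was above every labelled control library, as one way or the other in 37.5% of all genes tested. Still, the log2 fold change of 0.16 ± 0.10 did not pass (adjusted p = 0.248, edgeR). It passed when all 12 libraries were fitted together (0.18 ± 0.06, adjusted p = 0.0275, edgeR), a fit whose spread takes in the closer THP-1 replicates.

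CTSS and CTSK, neighbours on chromosome 1, went opposite ways in THP-1. Cathepsin S, which stays active at neutral pH and trims the invariant chain from MHC class II, is encoded by CTSS (ENSG00000163131; chromosome 1, 150730196 to 150765957, minus strand). Cathepsin K, the collagen-cutting protease of osteoclasts, is encoded by CTSK (ENSG00000143387; chromosome 1, 150796208 to 150808323, minus strand), and 30250 bases separate the 2 genes on the same strand. CTSS held 210, 204 and 207 TPM in THP-1 labelled DCBLD2, against 169, 162 and 162 TPM in THP-1 labelled control, and was the member with the largest rise. The log2 fold change was 0.49 ± 0.02 on the counts (adjusted p = 1.09e-15, edgeR), while the TPM means differ 1.26-fold, or by 0.33 on the log2 scale. The ratio of count to TPM, which follows the transcript length estimated by the quantification, was higher by 0.12 (log2) in labelled DCBLD2 than in labelled control relative to the median gene, a size that 11.4% of 11261 genes exceeded. CTSK held 8.27, 7.76 and 8.05 TPM in labelled DCBLD2, against 15.3, 16.9 and 16.6 TPM in labelled control. With a TPM fold of 2.03 and a log2 fold change of -0.98 ± 0.08 (adjusted p = 8.90e-11, edgeR), CTSK had the deepest fall of the 9 members tested, at a low level. The ratio of CTSS to CTSK transcripts was 25.8 ± 0.475 in labelled DCBLD2 and 10.1 ± 0.802 in labelled control (SD, n = 3 each).

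In H1299 CTSS was at the edge of detection. It was listed at 0, 0.067 and 0.074 TPM in labelled DCBLD2 and at 0.047, 0.078 and 0.119 TPM in labelled control, from 3 and 6 reads over each whole group, and it did not pass the filter on low counts. CTSK held 0.878, 1 and 1.17 TPM in H1299 labelled DCBLD2 and 1.71, 0.981 and 1.31 TPM in H1299 labelled control; the groups overlapped, and the log2 fold change of -0.38 ± 0.33 was not called (adjusted p = 0.433, edgeR).

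CTSV (ENSG00000136943; chromosome 9, 97029679 to 97039643, minus strand), known also as cathepsin L2 for its likeness to cathepsin L and best known from thymus, was the one member that THP-1 hardly expressed. It had 0.492, 0.141 and 0.623 TPM in THP-1 labelled DCBLD2 and 0.746, 0.548 and 0.339 TPM in THP-1 labelled control, from 24 and 28 reads per group. The groups overlapped and the gene did not pass the filter. In H1299 it held 10.2, 8.94 and 7.60 TPM in labelled DCBLD2 and 8.15, 9.09 and 7.31 TPM in labelled control, which also overlapped (log2 fold change 0.11 ± 0.17, adjusted p = 0.654, edgeR). Reads of CTSL and CTSV can be told apart, since their annotated transcripts share 0 stretches of 50 bases, as do all pairs of members.

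The cathepsins that trim protein ends, CTSH, CTSZ and CTSC, gave 3 different results. CTSH (ENSG00000103811; chromosome 15, 78921058 to 78949574, minus strand) encodes an aminopeptidase. It stood at 618, 647 and 615 TPM in THP-1 labelled DCBLD2, against 868, 894 and 869 TPM in THP-1 labelled control. It was 1.40-fold lower in TPM, with a log2 fold change of -0.47 ± 0.02 (adjusted p = 1.58e-17, edgeR), close in size to that of CTSL. In H1299 it was a minor transcript of 3.08, 2.99 and 2.97 TPM in labelled DCBLD2 and 3.43, 3.66 and 2.75 TPM in labelled control, with overlapping groups (-0.14 ± 0.23, adjusted p = 0.705, edgeR).

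CTSZ (ENSG00000101160; chromosome 20, 58995185 to 59007247, minus strand) encodes cathepsin Z, also called X, a carboxypeptidase that can bind integrins through its propeptide. It held 539, 564 and 555 TPM in THP-1 labelled DCBLD2, against 517, 522 and 512 TPM in THP-1 labelled control. The groups did not overlap, and the rise was small (log2 fold change 0.12 ± 0.02, adjusted p = 3.42e-06, edgeR). In H1299 CTSZ held 47.8, 42.8 and 48.8 TPM in labelled DCBLD2, against 81.9, 66.3 and 64.6 TPM in labelled control. It was 1.53-fold lower in TPM there, with every labelled DCBLD2 library below every labelled control library and a log2 fold change of -0.60 ± 0.12 (adjusted p = 0.0115, edgeR). This call was lost without labelled DCBLD2 replicate 2 (-0.54, adjusted p = 0.0694).

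CTSC (ENSG00000109861; chromosome 11, 88293592 to 88337787, minus strand) encodes the dipeptidyl peptidase that activates the serine proteases of leukocyte granules. It held 61.1, 58.5 and 62.1 TPM in THP-1 labelled DCBLD2, against 63.6, 65.0 and 67.8 TPM in THP-1 labelled control, groups that lie close without overlap (log2 fold change -0.12 ± 0.04, adjusted p = 0.00540, edgeR). In H1299 it was one of the main cathepsins, with 178, 173 and 163 TPM in labelled DCBLD2 and 172, 195 and 194 TPM in labelled control. There the groups overlapped and the log2 fold change of -0.20 ± 0.10 was not called (adjusted p = 0.155, edgeR). It passed when all 12 libraries were fitted together (-0.19 ± 0.07, adjusted p = 0.0493, edgeR), where the closer THP-1 replicates also enter the spread.

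The aspartic and the serine member changed little in either line. CTSD (ENSG00000117984; chromosome 11, 1752752 to 1764573, minus strand), the aspartic endopeptidase whose promoter held 1 E-box, stood at 618, 652 and 642 TPM in THP-1 labelled DCBLD2, against 612, 596 and 588 TPM in THP-1 labelled control (log2 fold change 0.13 ± 0.02, adjusted p = 1.22e-06, edgeR). In H1299 it held 119, 149 and 147 TPM in labelled DCBLD2 and 132, 139 and 125 TPM in labelled control, with overlap (0.05 ± 0.12, adjusted p = 0.797, edgeR); its sign turned without labelled control replicate 3 (-0.01) and without labelled DCBLD2 replicate 3 (-0.04). The level of CTSD is uncertain, because the read-through gene model ENSG00000250644 on the same strand covers 41.7% of its exonic bases and was given 65.8, 67.7 and 63.8 TPM in THP-1 labelled DCBLD2 and 57.0, 61.0 and 55.8 TPM in THP-1 labelled control. With the counts of both models summed, the log2 fold change in THP-1 was again 0.13 ± 0.02 (adjusted p = 2.96e-07, edgeR).

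CTSA (ENSG00000064601; chromosome 20, 45890144 to 45898820, plus strand), with 2 E-boxes in its window, encodes a serine carboxypeptidase that also protects beta-galactosidase and neuraminidase 1 in a complex. It held 140, 145 and 148 TPM in THP-1 labelled DCBLD2, against 165, 159 and 163 TPM in THP-1 labelled control, a small fall without overlap (log2 fold change -0.14 ± 0.03, adjusted p = 3.10e-05, edgeR). In H1299 it held 159, 181 and 172 TPM in labelled DCBLD2 and 179, 183 and 166 TPM in labelled control, which overlapped (-0.06 ± 0.10, adjusted p = 0.704, edgeR). On the opposite strand NEURL2 covers 17.7% of its exonic bases and PLTP 3.42%; they had at most 63.6 and 792 estimated reads in any library, and whether counting used the strand is not given in the sources used here.

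Summed over the 10 genes, cathepsin transcripts came to 4412 ± 52.2 TPM in THP-1 labelled DCBLD2 and 5802 ± 35.3 TPM in THP-1 labelled control (SD, n = 3 each), that is 0.441% and 0.580% of all TPM. The make-up moved too, since 6 members fell by different amounts and CTSS, CTSD and CTSZ rose: CTSB and CTSL together were 49.3% of the sum in labelled DCBLD2 and 58.6% in labelled control. CTSD took 14.4% and 10.3%, CTSZ 12.5% and 8.91%, and CTSS 4.69% and 2.83%, whereas CTSH stayed near 14.2% and 15.1%. In H1299 the sum was 839 ± 34.4 TPM in labelled DCBLD2 and 875 ± 26.1 TPM in labelled control, ranges that overlap. There CTSB took 27.3% and 26.3%, CTSC 20.5% and 21.4%, CTSA 20.3% and 20.1% and CTSD 16.4% and 15.1%, and the largest shift was that of CTSZ, 5.55% against 8.12%. No test was made on these sums and shares, which describe the same values as the genes.

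**Figure D3:**
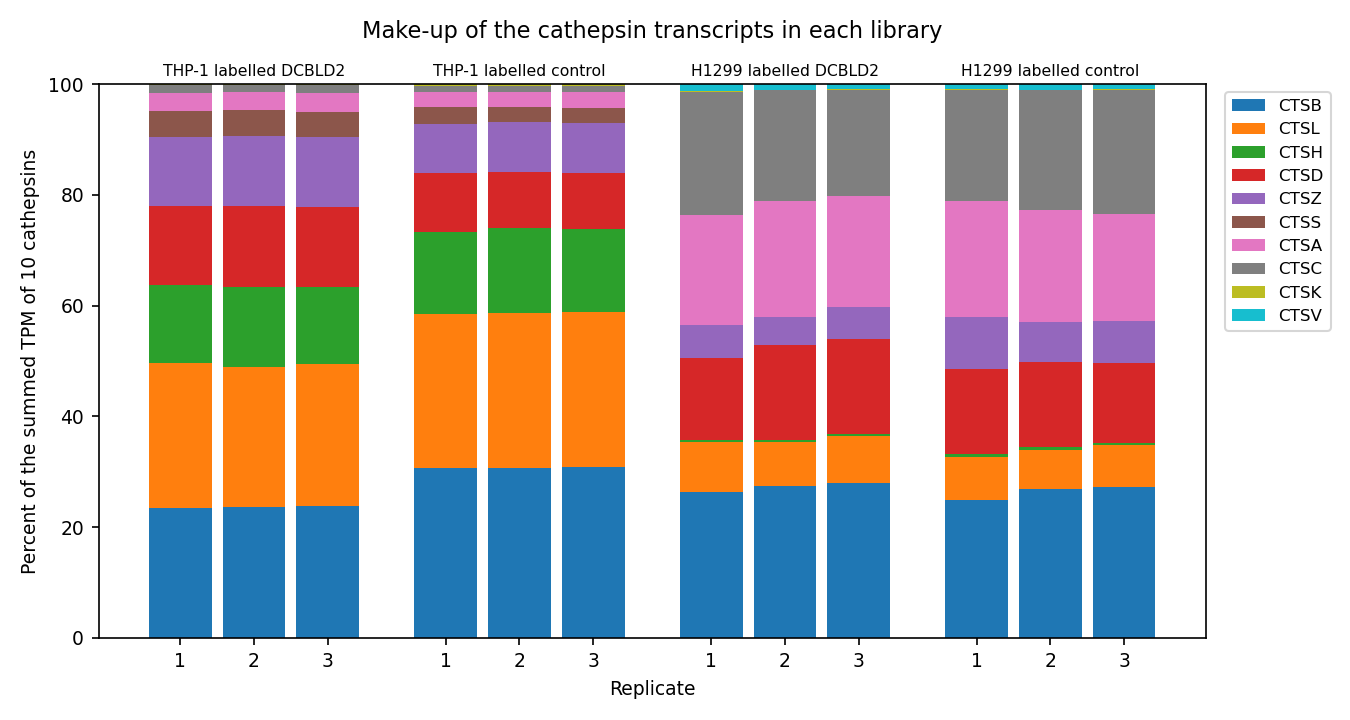
Share of each cathepsin in the summed TPM of the 10 genes, in percent, for each replicate of the 4 groups. CTSB and CTSL fill 49.3% of the bar in THP-1 labelled DCBLD2 and 58.6% in THP-1 labelled control, and CTSA and CTSC are wide bands only in the H1299 bars.

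The 2 cell lines, which differ in origin, in PMA and in the exposure to H1299, so that these cannot be told apart, hold different sets of cathepsins. In THP-1 labelled DCBLD2 the order of mean TPM was CTSL, CTSB, CTSD, CTSH, CTSZ, CTSS, CTSA, CTSC, CTSK and CTSV, in which the ranges of CTSD and CTSH overlapped. In THP-1 labelled control CTSB stood above CTSL and CTSH above CTSD, and there CTSS and CTSA overlapped. In H1299 labelled DCBLD2 the order was CTSB, CTSC, CTSA, CTSD, CTSL, CTSZ, CTSV, CTSH, CTSK and CTSS, with overlap between CTSC and CTSA; labelled control differed in having CTSZ above CTSL, and these overlapped, as did CTSC and CTSA. Between THP-1 labelled control and H1299 labelled control, edgeR called 7 of 10 cathepsins higher and 2 lower, where 42.3% and 43.6% of 14244 genes were called. The median log2 fold change of the cathepsins was 3.14, against -0.03 over all genes tested.

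By far the widest gap between the lines was that of CTSS: 11214 reads in THP-1 labelled control against 6 in H1299 labelled control, a ratio per read sequenced of 1823 (95% exact binomial interval 837 to 4970, for counting error only). In the labelled DCBLD2 groups it was 17627 against 3 reads, a ratio of 4597 (1573 to 22294). CTSH averaged 877 ± 14.7 TPM in THP-1 labelled control and 3.28 ± 0.475 TPM in H1299 labelled control, a 267-fold difference (log2 fold change on counts 8.36 ± 0.10, adjusted p = 1.84e-17, edgeR). TPM were 24.5-fold higher in THP-1 for CTSL, 12.2-fold for CTSK, 7.74-fold for CTSB, 7.29-fold for CTSZ and 4.54-fold for CTSD, all called. CTSC was 2.86-fold lower in THP-1 labelled control than in H1299 labelled control (log2 fold change -0.95 ± 0.07) and CTSV 15.03-fold lower (-3.67 ± 0.29), both called. CTSA was the member closest to equal, at 162 ± 2.85 TPM in THP-1 labelled control and 176 ± 8.73 TPM in H1299 labelled control. Its log2 fold change of 0.15 ± 0.07 on counts was not called (adjusted p = 0.0606, edgeR), and on TPM its sign turned (-0.11, where the median of all genes moved to -0.29). The call changes with the method, for CTSA passed with DESeq2 (0.23, adjusted p = 0.00808), with the size factors of DESeq2 in edgeR (0.23, adjusted p = 0.0132) and with limma voom and sample weights (0.24, adjusted p = 0.000486). It also changes with single libraries, and CTSA passed without H1299 labelled control replicate 2 (0.26, adjusted p = 0.00338), without H1299 labelled DCBLD2 replicate 1 (0.17, adjusted p = 0.0378) and without H1299 labelled DCBLD2 replicate 3 (0.17, adjusted p = 0.0448).

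Whether a cathepsin changed differently in the 2 lines was tested as an interaction over all 12 libraries, the THP-1 difference minus the H1299 difference. CTSB (-0.74 ± 0.11, adjusted p = 0.000143) and CTSL (-0.66 ± 0.08, adjusted p = 2.69e-05) had lower differences in THP-1 than in H1299, and CTSZ (0.71 ± 0.11, adjusted p = 0.000242) a higher one, all by edgeR. Of all genes tested, 19.3% were called higher and 19.5% lower. CTSZ was called in both lines, in opposite directions, in the fits per line. In the fit of all 12 libraries its rise in THP-1 did not pass (0.12, adjusted p = 0.227, edgeR), and its fall in H1299 was lost without labelled DCBLD2 replicate 2, as given above. For CTSH (-0.35, adjusted p = 0.0968) and CTSK (-0.62, adjusted p = 0.0908) the difference between the lines did not pass in edgeR, although both were called only in THP-1. Under the alternatives, CTSH and CTSK each passed in 2 of 22. CTSK passed without H1299 labelled control replicate 1 (-0.82, adjusted p = 0.0181), and CTSH (-0.40, adjusted p = 0.00879) and CTSK (-0.73, adjusted p = 0.00325) passed with limma on log2(TPM + 1). For CTSK, at 1.02 and 1.33 TPM on average in the H1299 groups, the added 1 narrows the H1299 difference. By limma that difference was -0.20 on log2(TPM + 1) and -0.34 on log2(TPM + 0.1). For CTSS, with 3 and 6 reads in the H1299 groups, the difference between the lines could not be measured.

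Outside the 10, the cathepsin list fixed for comparison held CTSE, CTSF, CTSG, CTSO and CTSW, of which 4 were tested in THP-1. Of all genes tested in THP-1, 34.5% were called higher and 33.6% lower. CTSW, the cathepsin of cytotoxic lymphocytes, fell to 35.3 ± 0.489 TPM in THP-1 labelled DCBLD2, against 97.0 ± 2.34 TPM in labelled control (log2 fold change -1.43 ± 0.04, adjusted p = 5.85e-20, edgeR; SD, n = 3 each). CTSF rose by 0.24 ± 0.08 (adjusted p = 0.0103, edgeR), and the other two were not called. In H1299 2 were tested and 0 called by edgeR, CTSF at -0.63 (adjusted p = 0.0712) and CTSO at -0.15 (adjusted p = 0.714).

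The endogenous inhibitors of the cysteine cathepsins did not move as one. Of 9 cystatins and stefins 4 were tested in THP-1, where 2 rose and 1 fell (median log2 fold change 0.23), beside 34.5% and 33.6% of all genes. CST3, the secreted cystatin C, held 343 ± 6.89 TPM in labelled DCBLD2 and 188 ± 5.25 TPM in labelled control (0.90 ± 0.03, adjusted p = 1.45e-19, edgeR), and CSTA, the cytosolic stefin A, 87.6 ± 7.00 and 23.3 ± 0.567 TPM (1.94 ± 0.07, adjusted p = 6.58e-18, edgeR). CSTB, the cytosolic stefin B and the most abundant of them, fell to 1743 ± 66.6 TPM in labelled DCBLD2, against 2481 ± 25.1 TPM in labelled control (-0.48 ± 0.02, adjusted p = 9.28e-17, edgeR). In H1299 CSTB was lower as well, 238 ± 9.92 TPM in labelled DCBLD2 and 314 ± 33.7 TPM in labelled control (-0.41 ± 0.11, adjusted p = 0.0309, edgeR), the only call of 2 tested. Of 5 serpins listed apart, inhibitors that act inside cells, 2 were tested in each line. SERPINB6 fell in both, by 0.20 in THP-1 (adjusted p = 0.0237, edgeR) and by 0.42 in H1299 (adjusted p = 0.0146, edgeR), and SERPINB1 was not called. Whether these 2 serpins act on the cysteine cathepsins was not examined.

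The machinery that tags and carries cathepsins to the lysosome was tested in full, with 9 of 9 genes. In THP-1, 5 fell and 2 rose (median -0.25), beside 33.6% and 34.5% of all genes. Among those that fell were both mannose 6-phosphate receptors: IGF2R held 78.7 ± 1.47 TPM in labelled DCBLD2 and 144 ± 6.17 TPM in labelled control (-0.81 ± 0.02, adjusted p = 5.49e-23, edgeR), and M6PR 104 ± 2.38 and 141 ± 4.87 TPM (-0.38 ± 0.02, adjusted p = 4.56e-13, edgeR). SORT1, sortilin, a sorting receptor that does not read the mannose tag, held 20.8 ± 0.997 and 11.6 ± 0.53 TPM (0.91 ± 0.04, adjusted p = 6.48e-17, edgeR). In H1299 edgeR called 0 of 9, with M6PR at -0.26 (adjusted p = 0.0529) and GNPTAB, a subunit of the enzyme that starts the tag, at 0.46 (adjusted p = 0.0695). Of all genes tested in H1299, 10.3% were called higher and 10.6% lower.

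Other lysosomal hydrolases and their cofactors were tested for all 22 listed, of which 15 fell and 4 rose in THP-1 (median -0.31). Of all genes tested in THP-1, 33.6% were called lower and 34.5% higher. GM2A, the activator of ganglioside breakdown, held 59.9 ± 1.13 TPM in labelled DCBLD2 and 170 ± 1.96 TPM in labelled control (-1.47 ± 0.02, adjusted p = 5.67e-26, edgeR). PPT1, which removes palmitate from proteins, held 1121 ± 16.6 and 1925 ± 1.40 TPM (-0.75 ± 0.01), and PSAP, the precursor of the saposins, 847 ± 6.96 and 1251 ± 5.41 TPM (-0.53 ± 0.01), both called. In H1299, where 10.3% of all genes were called higher and 10.6% lower, 3 of 22 rose and 2 fell; ACP2, lysosomal acid phosphatase, stood at -0.89 ± 0.13 (adjusted p = 0.00329, edgeR) and LGMN, the asparagine-specific protease that processes cathepsins, at 0.54 ± 0.10 (adjusted p = 0.00797, edgeR).

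The counts in this paragraph stand beside 34.5% of all genes called higher and 33.6% lower in THP-1, and 10.3% and 10.6% in H1299. Of 10 lysosomal membrane genes 5 fell and 3 rose in THP-1 (median -0.09): the cholesterol exporter NPC1 changed by -1.09 ± 0.03, the chloride exchanger CLCN7 by -0.29 ± 0.02 and LAPTM5, which is also among the macrophage markers, by -0.17 ± 0.01. In H1299, 9 were tested, 3 fell and 1 rose, with the calcium channel MCOLN1 at -0.62 (adjusted p = 0.0129, edgeR) and CLCN7 at -0.49 (adjusted p = 0.0200, edgeR). The 16 subunits and partners of the proton pump that keeps the lysosome acid went both ways in THP-1, 7 up and 8 down (median -0.08). ATP6V0B rose by 0.76 ± 0.02 and ATP6V0E1 by 0.62 ± 0.02, while ATP6V0A1 was at -0.59 ± 0.02. In H1299, 2 of 15 fell and 0 rose, ATP6V0E1 at -0.53 (adjusted p = 0.0161, edgeR) and ATP6V0D1 at -0.45 (adjusted p = 0.0212, edgeR). The transcription factors of the TFEB family, which bind the E-box searched above, were split in THP-1 (2 of 4 higher, 2 lower): TFEC rose by 0.90 ± 0.06 and TFE3 by 0.28 ± 0.03, and TFEB was at -0.32 ± 0.04. In H1299 0 of 3 tested were called by edgeR, with TFEB at 0.34 (adjusted p = 0.374) and TFE3 at 0.03 (adjusted p = 0.820).

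Genes with which single cathepsins work were listed apart. Of the class II antigen genes, served by cathepsin S, 6 of 9 were tested in THP-1, where 2 rose and 3 fell (median -0.06). HLA-DRB1 rose by 1.24 ± 0.05, a value made uncertain by its near-identical relatives, CD74, the invariant chain that cathepsin S trims, held 152.5 ± 0.0362 TPM in labelled DCBLD2 and 136 ± 0.859 TPM in labelled control (0.20 ± 0.03), and IFI30, the lysosomal thiol reductase, was at -0.14 ± 0.02. In H1299 2 of 4 rose, HLA-DMA by 1.34 (adjusted p = 0.0177, edgeR) and HLA-DMB by 1.96 (adjusted p = 0.0247, edgeR), both at under 4 TPM. In THP-1 both of these were lower, HLA-DMA at -0.39 ± 0.13 (adjusted p = 0.00908, edgeR) and HLA-DMB at -1.17 ± 0.30 (adjusted p = 0.00140, edgeR). Of the granule proteases that cathepsin C activates, or their inactive relative AZU1, 5 of 7 were tested in THP-1 and 3 rose (median 0.96): AZU1 by 1.20 ± 0.09, PRTN3 by 1.09 ± 0.22 and ELANE by 0.96 ± 0.24, while CTSC itself stood at -0.12. PRTN3 and ELANE were low, at 5.63 and 4.28 TPM on average in THP-1 labelled DCBLD2 and 2.74 and 2.11 TPM in THP-1 labelled control. In H1299 0 of the 7 granule proteases passed the filter. Of the osteoclast genes, listed beside cathepsin K, 7 of 8 tested in THP-1 fell and 1 rose (median -0.50): ITGB3, the integrin beta 3 chain, was at -0.86 ± 0.02, OCSTAMP, a cell fusion protein, at -0.53 ± 0.02 and the gelatinase MMP9 at -0.30 ± 0.01. In H1299 0 of 3 were called by edgeR, ITGB3 at -0.26 (adjusted p = 0.233) and NFATC1, a transcription factor of osteoclasts, at 0.24 (adjusted p = 0.368). All of these counts are to be read against the 34.5% and 33.6% of all genes that were called higher and lower in THP-1, and the 10.3% and 10.6% in H1299.

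**Figure D4:**
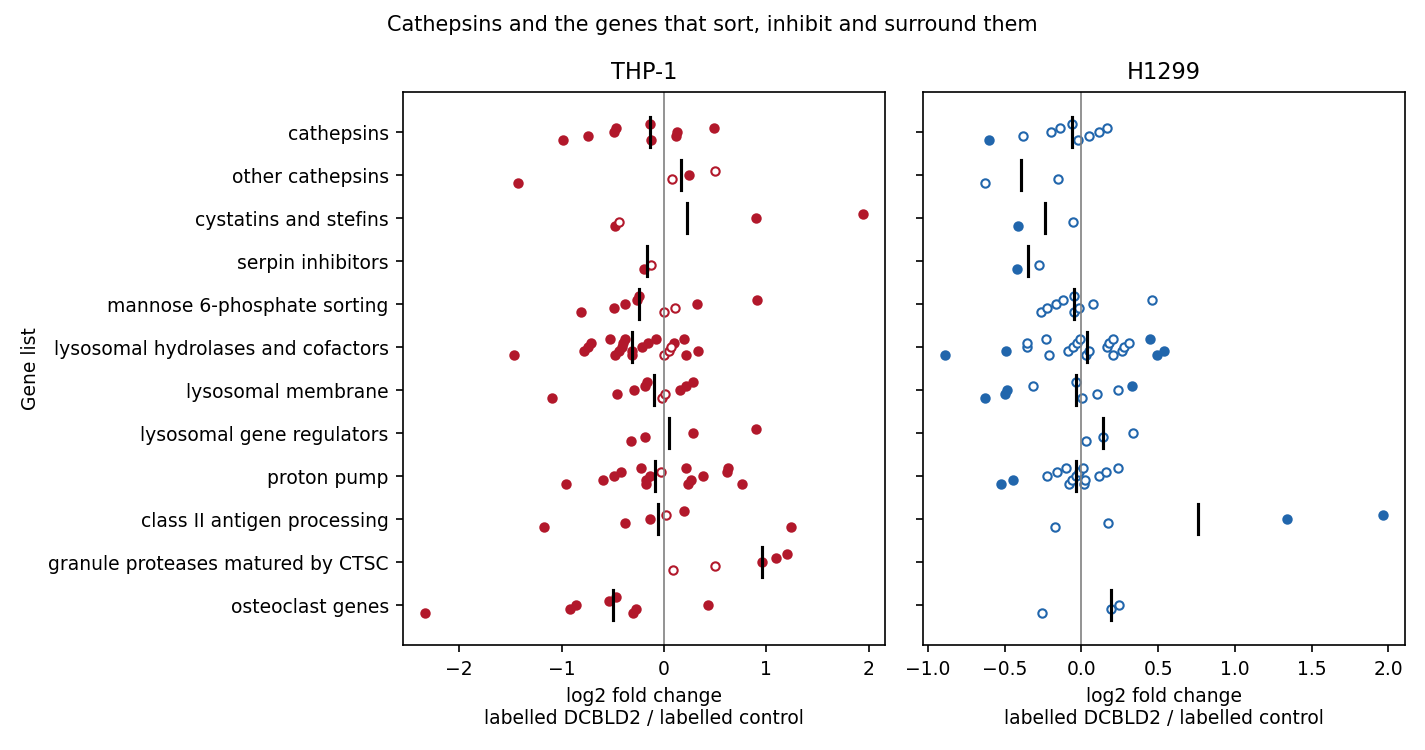
Log2 fold changes, labelled DCBLD2 over labelled control, of the 10 cathepsins and of the members of 11 related gene lists, in THP-1 (left) and H1299 (right); each point is a gene, filled where its adjusted p was under 0.05, and black bars are list medians. The 22 hydrolases have a median of -0.31 and the 8 osteoclast genes of -0.50 in THP-1, and the proton pump straddles 0.

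The genes whose level across the 12 libraries ran closest to a cathepsin were sought for the 3 with the highest mean, CTSB, CTSL and CTSH, by the Euclidean distance of log2(TPM + 1) centred per gene, among 10082 genes. Closest to CTSB were ITPKB, an inositol trisphosphate kinase (distance 0.313), and TRERF1, a zinc finger factor (0.406). ITPKB stood at 24.8 TPM in THP-1 labelled DCBLD2, 46.3 in THP-1 labelled control, 5.25 in H1299 labelled DCBLD2 and 5.48 in H1299 labelled control. Closest to CTSL were the transcription factors STAT5A (0.256) and MAF (0.274), with 17.0 and 14.1 TPM in THP-1 labelled DCBLD2, 24.1 and 23.2 TPM in THP-1 labelled control and 0 or nearly 0 in H1299. Closest to CTSH were CCL4, a chemokine (0.310), whose near-identical copy CCL4L2 makes its counts uncertain, and the phosphatase PTPN6 (0.369), at 167 TPM in THP-1 labelled DCBLD2, 198 TPM in THP-1 labelled control and 0 to 0.057 TPM on average in H1299. These distances are dominated by the gap between the lines, and they describe 12 libraries in 4 groups. For STAT5A, MAF, CCL4 and PTPN6, at or near 0 TPM in H1299, the added 1 sets the size of that gap. CTSL itself held 70.3 TPM on average in H1299 labelled DCBLD2 and 65.9 TPM in H1299 labelled control. Being close to it by this distance therefore does not mean an equal fold between the lines.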

How the data were processed

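The authors deposited, in one table per gene, TPM values and estimated counts for each of the 12 libraries; the estimated counts were not normalized, and 12.0% to 13.4% of the values per library were not whole. Per the labels' protocols, RNA was taken with Trizol and libraries were made with an NEBNext Ultra kit from enriched mRNA. Reads were processed on hg38 with RSEM, HISAT2, StringTie 1.3.1, Bowtie2 2.2.8 and fastp 0.18.0, per the submitters' processing notes, which name no order; the sources used here give neither annotation release nor strand setting. RSEM-type estimates split reads shared by genes, and TPM depend on all other genes of a library.

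Counts were rounded and tested with edgeR 4.0.16 (R 4.3.3; quasi-likelihood, TMM, filterByExpr minimum of 10 counts), with 6 libraries per cell line, or all 12 for the comparison of lines and for the interaction. P-values were adjusted by Benjamini-Hochberg over all genes tested, the threshold was 0.05, and the tests are two-sided. Levels are TPM means ± SD, and fold changes carry edgeR's SE. Nothing in the labels says whether replicates came from separate cultures; the p-values then reflect the spread among these libraries alone, and that spread may be technical. Replicates of THP-1 differed by a chi-square per gene of 1.55 to 2.27 and those of H1299 by 10.4 to 35.1, all beyond sampling noise, and all were counted. Positions and shared sequence come from GENCODE release 29 on GRCh38. The scripts were tested on simulated counts. Alternatives were a replicate block, each library left out, 1 fit of all libraries, DESeq2 1.42.0, other scaling and filters, limma 3.58.1 on TPM or with sample weights, CTSL and CTSV summed, the spread of H1299 used for THP-1 and, chosen after seeing the data, CTSD summed with its read-through gene.

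The members and lists were chosen with earlier results of these data known. Named are the 10 cathepsins, DCBLD2, up to 3 called genes of each list with the smallest p in THP-1 and up to 2 in H1299 (or 2 as values where none was called), and the 2 genes closest to each of the 3 most abundant cathepsins among genes with a mean of at least 5 TPM. SERPINB1, CD68, CAV1, KRT18, KRT19, PTPRC, AIF1, NEURL2, PLTP, CCL4L2 and the read-through gene were named after their values were seen.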

Additional observations from a re-analysis of the deposited data

Results flagged for a closer look

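For 3 cathepsins the change in THP-1 differed from that in H1299 by a test of the difference itself, the interaction in edgeR over 12 libraries. Of 10 tested, 1 was called higher and 2 lower, where 19.3% and 19.5% of all 14244 genes were called, so being called sets them little apart. CTSB fell in THP-1 (log2 fold change -0.75) and stood at -0.02 in H1299, an interaction of -0.74 ± 0.11 (SE, adjusted p = 0.000143). CTSL fell in THP-1 (-0.49) and stood at 0.16 in H1299, an interaction of -0.66 ± 0.08 (adjusted p = 2.69e-05). CTSZ rose in THP-1 (0.12) and fell in H1299 (-0.60), an interaction of 0.71 ± 0.11 (adjusted p = 0.000242). The rise of CTSZ in THP-1 comes from the fit of that line alone: it did not pass in the fit of all 12 libraries (0.12, adjusted p = 0.227) or with the spread of H1299 (0.12, adjusted p = 0.589), and the fall in H1299 did not pass without labelled DCBLD2 replicate 2 (-0.54, adjusted p = 0.0694). Line, PMA and exposure to H1299 cannot be told apart in this difference.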

How the results depend on the processing

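Of 752 values of single cathepsins under alternatives, 722 kept their direction and their side of the threshold, 13 passed it only under the alternative, 9 passed it only in the reported fit, and 8 turned sign. In THP-1 the 9 calls became 5 with all 12 libraries in 1 fit and 5 with the common spread of H1299, under which CTSA, CTSC, CTSD and CTSZ did not pass and the calls over all genes were 4531 in place of 8941. In H1299 the single call became 3 with all 12 libraries in 1 fit (5056 in place of 2669 genes), whose spread takes in the closer THP-1 replicates. Leaving out 1 H1299 library gave 0 to 1 cathepsins called in that line, 0 without labelled DCBLD2 replicate 2. Without labelled DCBLD2 replicates 1 and 2 or labelled control replicate 3, 1374, 514 and 1649 genes were called in H1299. The interaction had 6 calls in place of 3 with limma on log2(TPM + 1), of which that of CTSS carries no information on H1299, where it had 3 and 6 reads and the added 1 holds its difference near 0. The added 1 also narrows the H1299 difference of CTSK, which had 1.02 and 1.33 TPM on average in the H1299 groups. Leaving out 1 library gave -0.086 to 0.053 for CTSB and -0.038 to 0.14 for CTSD in H1299, and -0.11 to 0.041 for the interaction of CTSA. CTSA between the lines was -0.11 with limma on log2(TPM + 1) and -0.12 on log2(TPM + 0.1). Beyond the libraries left out and the larger spread, the cause was not tested. With the replicate number as a block, 9 cathepsins were called in THP-1, 1 in H1299, 9 between the lines and 3 in the interaction, as without it, and 1797 genes in H1299 (8990 in THP-1). Deviations of libraries of the same number correlated at 0.03 to 0.06 in THP-1 and at -0.28 to -0.12 in H1299. In H1299 labelled DCBLD2 replicates 1, 2 and 3 correlated at 0.26, 0.29 and 0.36 with labelled control replicates 3, 1 and 2. The numbers thus gave no sign of pairs in H1299 and little in THP-1, and a batch shared under other numbers was not tested. Depth limits CTSS in H1299 and CTSV in THP-1, for which no change was detectable.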
